A study of Mus musculus with 5 samples.

Results

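Eomes-expressing cells were the activated CD8+ T cells whose Eomes value was above 0 after 24 h of co-culture, and they were set against the cells of the same library in which Eomes was 0. They were chosen by their measured Eomes value alone, so Eomes itself is no finding here, and the values that follow from this split are given as a description. They numbered 989 of the 3809 cells profiled at 24 h, and of 13629 cells in the whole series. All cells were OT-I CD8+ T cells, which carry a transgenic T cell receptor for the ovalbumin peptide SIINFEKL, from spleen and lymph nodes of the strain C57BL/6-Tg(TcraTcrb)1100Mjb/J. At 24 h one library came from T cells cultured with peptide-pulsed dendritic cells (DCs), and the other from such a culture to which MDSCs, suppressive myeloid cells, were added. The series also holds T cells sorted before stimulation (0 h) and libraries with DCs and with DCs and MDSCs at 72 h, used here for Eomes itself and for a follow-up. Each group was 1 library. No test was therefore possible, no p-value is given, and a difference between the culture conditions cannot be told apart from one between the libraries.

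Eomes encodes Eomesodermin, a T-box transcription factor related to T-bet (gene Tbx21). In CD8+ T cells these factors are known to act on genes for interferon gamma and granule proteins, and Eomes is known for its part in memory and in maintaining Il2rb, the beta chain shared by the IL-2 and IL-15 receptors. Textbook accounts place Eomes in T cells that have just been activated, in memory cells and in natural killer (NK) cells.

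Eomes (ENSMUSG00000032446, GRCm38 chr9:118478212-118486132, forward strand) was above 0 in 370 of the 1562 cells cultured with DCs, or 23.7% (exact 95% interval 21.6 to 25.9%). With MDSCs it was above 0 in 619 of 2247 cells, or 27.5% (25.7 to 29.4%). These intervals and all others below are Clopper-Pearson intervals that cover counting error only, and they overlapped slightly. At 72 h the shares were 5.30% (102 of 1926 cells) with DCs and 6.56% (324 of 4942 cells) with MDSCs. At 0 h Eomes was above 0 in 5.05% of cells (149 of 2952), but 81.2% of those values were exactly 2, unlike in the later libraries, so the 0 h share is not set against them. Eomes levels across all cells of a library were 7.50 CPM at 0 h, 30.7 and 34.3 CPM at 24 h with DCs and with MDSCs, and 4.25 and 4.94 CPM at 72 h. Here CPM means the summed adjusted counts of a gene per 1000000 adjusted counts of the set of cells. The 2 libraries of 24 h thus held Eomes-expressing cells at a share several times that of 72 h, and differed little from each other.

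The Eomes value that put a cell in the set was low in most of them. Just inside the threshold, 176 of the 370 cells with DCs and 325 of the 619 with MDSCs had an Eomes value of 1. A value of 2 was found in 81 and 135 cells, and 3 or more in 113 and 159 cells, while the 1192 and 1628 cells just outside had 0. A value of 0 does not show that a cell lacks the transcript, since sequencing depth is unknown. The number of genes above 0 differed little between the sets: the median was 3797 in Eomes-expressing and 3730.5 in the other cells with DCs, and 3537 and 3648 with MDSCs. There were 7 barcodes found in both 24 h libraries, which touched 14 cells.

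The cells carried the T cell identity that their label gives. Cd3d, a subunit of the T cell receptor complex, was above 0 in 99.7% of Eomes-expressing cells in both libraries, and Cd8b1, the CD8 beta chain, in 99.7% with DCs and 100% with MDSCs. Of the markers of 8 other cell types, many were near 0 or not in the table used here, which holds 2 of 12 listed B cell and 4 of 14 listed gamma-delta and NKT cell markers. Lyz2, S100a8 and S100a9, abundant in myeloid cells, were at 0 in every cell of the DC library and at no more than 1.72 CPM in Eomes-expressing cells with MDSCs. Of the 13 NK cell markers listed, 8 were in the table: Tyrobp was at 0.988 CPM and Klre1 at 1.13 CPM in Eomes-expressing cells with DCs, against 0.479 and 1.48 CPM in the other cells. With MDSCs these were 1.29 and 0.861 CPM, against 1.24 and 1.70 CPM. The list of CD4 and regulatory T cells summed to 67.7 CPM in Eomes-expressing and 65.4 CPM in other cells with DCs and to 49.6 and 38.8 CPM with MDSCs. Within it Izumo1r, which encodes folate receptor 4, was at 22.4 against 12.2 CPM with DCs and at 19.98 against 7.89 CPM with MDSCs, and the part of such cells in the results was not tested. Cells with 3 or more markers of 1 other type made up 14.6% of Eomes-expressing and 10.1% of other cells with DCs, and 16.3% and 14.3% with MDSCs. The lists hold genes that were above 0 in most of these T cells, such as Cst3, above 0 in 75.7% and 77.5% of the Eomes-expressing cells. Summed levels of the NK list were 594 CPM in Eomes-expressing and 644 CPM in other cells with DCs and 508 and 463 CPM with MDSCs, nearly all of it Nkg7. The monocyte and macrophage list, which holds Ly6c2 and Cebpb, summed to 109 and 57.1 CPM with DCs and to 98.2 and 63.2 CPM with MDSCs. Without the cells that held 3 or more markers of 1 other type, 14 of the 17 genes higher in both libraries and 11 of the 12 lower, described next, were called again. Some called genes are themselves markers in these lists: Gzma (NK cell), Batf3 (dendritic cell) and Ly6c2 (monocyte and macrophage).

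Eomes-expressing cells at 24 h differed from their neighbours in a small group of genes, some of them called in both cultures. In both they held more mRNA for interferon gamma (Ifng), granzyme B (Gzmb), the Ly6C antigen (Ly6c2), the stress sensor Gadd45g, the costimulatory receptor Icos and Il2rb. In both they held less Il2, the growth factor made by newly activated T cells, and less Tnfrsf4 (OX40), Bach2 and Cd200. A gene was called when its level differed at least 1.5-fold between the sets and reached 20 CPM in either of them. With DCs 59 of 4655 genes were called higher (1.27%) and 53 lower (1.14%) in Eomes-expressing cells. With MDSCs 24 of 4538 were higher (0.529%) and 17 lower (0.375%). In the same direction in both libraries, 17 of 4435 genes were higher (0.383%) and 12 were lower (0.271%), so most genes called with DCs were not called with MDSCs. With a total that left out ribosomal protein and mitochondrially encoded genes, the split with DCs was 68 higher and 115 lower, and in both libraries 22 higher and 20 lower.

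**Figure D1:**
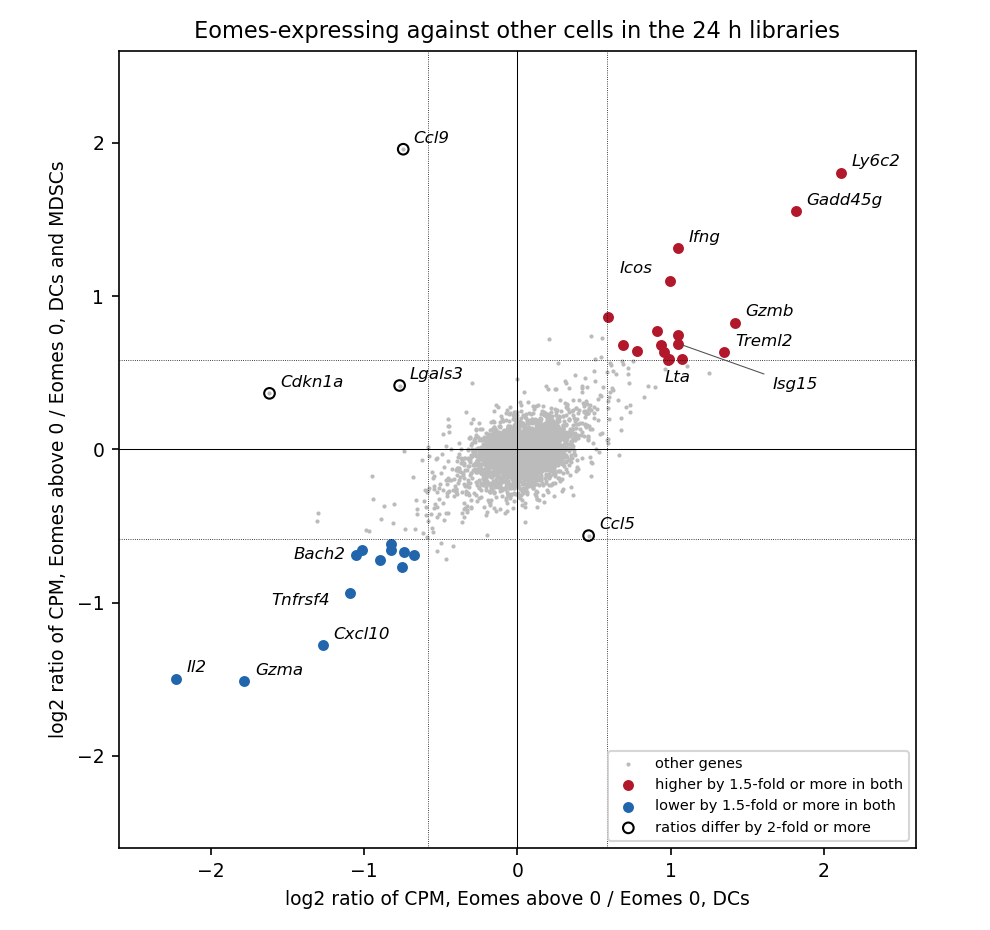
Each point is a gene at 20 CPM or more in both 24 h libraries, with the log2 ratio of CPM in Eomes-expressing to other cells with DCs (x axis) and with DCs and MDSCs (y axis). Dotted lines mark 1.5-fold. The 17 red and 12 blue genes lie beyond it in both libraries, with Ly6c2 and Gadd45g at the upper right and Il2 and Gzma at the lower left. The ratios of the 4 circled genes differ 2-fold or more between the libraries.

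These counts depended on how Gzmb was treated. When the other cells were weighted to follow the Gzmb values of the Eomes-expressing cells over 5 bins, an alternative chosen after the values were seen, 3 genes remained higher in both libraries and 5 lower, all of them among the 17 and 12. The 3 were Ly6c2, with log2 ratios of 1.85 with DCs and 1.26 with MDSCs, Gadd45g at 0.96 and 0.89, and Ifng at 1.08 and 0.60, the second just past 1.5-fold. The 5 were Il2 at -1.11 and -0.94, Tnfrsf4 at -0.64 and -0.63, Cd96 at -0.59 and -0.69, Insl6 at -0.84 and -0.62, and Gzma, whose values are treated below. Il2rb was at 0.37 and 0.39 under this weighting, and Bach2 at -0.62 and -0.42. Gzmb, itself among the 17, was at 0.099 and 0.013, which follows from matching the cells on it. When the other cells were weighted over 5 bins of summed cell cycle counts, 10 genes were higher in both and 8 lower, again all among those first called.

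Among the cytokines, Ifng (ENSMUSG00000055170, chr10:118441046-118445892) and Il2 (ENSMUSG00000027720, chr3:37120523-37125959) had opposite ratios. Ifng reached 186.5 CPM in Eomes-expressing and 90.1 CPM in other cells with DCs, a log2 ratio of 1.05. With MDSCs it reached 459 and 185 CPM, a log2 ratio of 1.31. Ifng was high in both sets when MDSCs were present and highest in Eomes-expressing cells of that library. The ratio with DCs is sensitive to a few cells: the largest single Ifng value, 638 adjusted counts, was in a cell with Eomes at 0, and without cells holding 3 or more markers of another type the log2 ratio was 1.93.

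Il2 was the gene with the most negative ratio in the DC library among those called in both. Its level was 176 CPM in Eomes-expressing and 822 CPM in other cells with DCs, a log2 ratio of -2.23. With MDSCs the levels were 144 and 407 CPM, a log2 ratio of -1.50. Cells with very high Il2, at 50 or more adjusted counts, made up 2.43% of Eomes-expressing and 8.31% of other cells with DCs, and 1.29% and 4.36% with MDSCs. Il2 was above 0 in 42.4% of Eomes-expressing and 60.2% of other cells with DCs, and in 37.6% and 53.8% with MDSCs, so both any Il2 and very high Il2 were less frequent beside Eomes.

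Counted per cell, Ifng and Il2 sorted the cells into 4 classes. Ifng without Il2 was found in 15.1% of Eomes-expressing cells (11.6 to 19.2%) against 5.37% of other cells (4.16 to 6.80%) with DCs. With MDSCs the shares were 23.4% (20.1 to 27.0%) and 11.2% (9.75 to 12.9%). Il2 without Ifng was found in 32.2% of Eomes-expressing cells (27.4 to 37.2%) against 52.9% (49.97 to 55.72%) with DCs, and in 22.0% (18.8 to 25.4%) against 40.6% (38.2 to 43.0%) with MDSCs. In both of these classes the intervals of the sets lay apart. Cells with both transcripts made up 10.3% and 7.38% with DCs and 15.7% and 13.2% with MDSCs, and there the intervals did overlap. Cells with neither were more frequent among Eomes-expressing cells with DCs, 42.4% (37.3 to 47.6%) against 34.4% (31.7 to 37.2%), with intervals apart. With MDSCs they made up 38.9% (35.1 to 42.9%) against 34.95% (32.6 to 37.3%), with overlapping intervals.

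**Figure D2:**
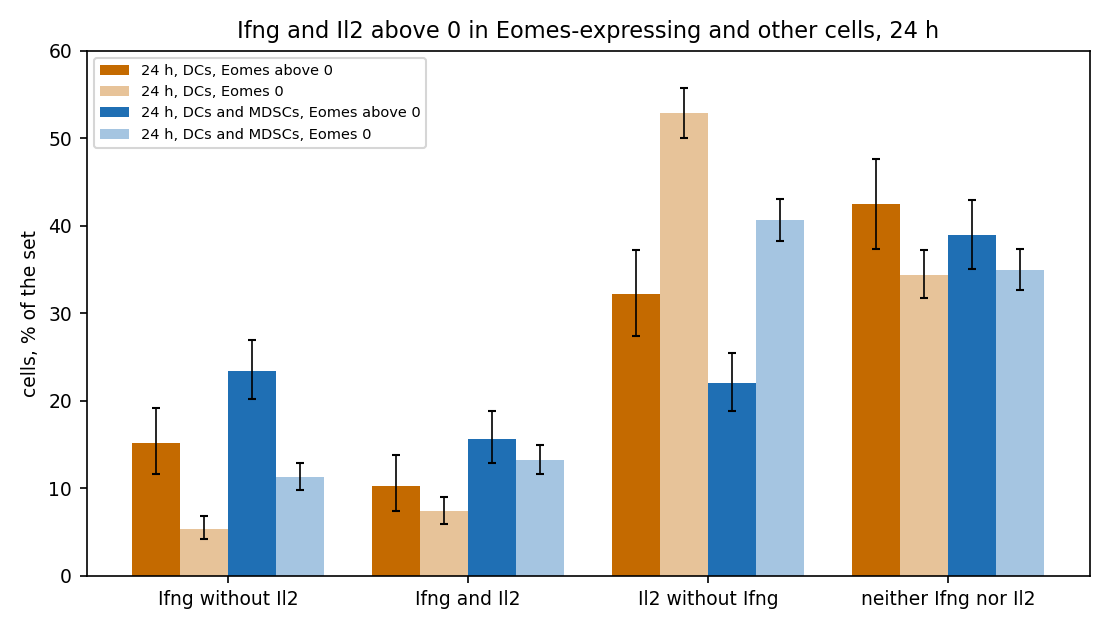
Bars give the percentage of cells in each class of Ifng and Il2 above 0, for Eomes-expressing cells (dark) and other cells (pale) of the 2 libraries of 24 h, with exact 95% intervals. Ifng without Il2 is more frequent in the dark bars (15.1% and 23.4%) than in the pale (5.37% and 11.2%), and Il2 without Ifng is less frequent.

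Read the other way, Eomes was found in 46.7% of the cells with Ifng and no Il2 in the DC culture (56 of 120) and in 44.2% with MDSCs (145 of 328). Among cells with Il2 and no Ifng it was found in 15.9% (119 of 749) and 17.1% (136 of 797). Tbx21, the related T-box gene, divided the cells far less: Eomes was found in 25.2% of cells with Tbx21 and 22.5% of those without it with DCs, and in 28.8% and 26.4% with MDSCs.

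Other cytokine genes varied. Lta, which encodes lymphotoxin alpha, was at 355 CPM in Eomes-expressing and 179 CPM in other cells with DCs, and at 473 and 315 CPM with MDSCs, log2 ratios of 0.99 and 0.59. Osm (oncostatin M) had log2 ratios of 0.91 and 0.77, and the chemokine gene Ccl1, which missed the 20 CPM minimum with MDSCs, 1.78 and 1.88. The chemokine gene Ccl4 was at 637 CPM against 1229 CPM with DCs, a log2 ratio of -0.95, but at 927 against 1047 CPM with MDSCs, a ratio of -0.18. Cxcl10, a chemokine gene induced by interferon, was lower in both libraries with log2 ratios of -1.27 and -1.28, at levels of 8.47 and 9.65 CPM in Eomes-expressing cells. The list of cytokine and chemokine genes counted next does not hold Osm or Cxcl10. Of its 15 genes at 10 CPM or more with DCs, 4 were higher and 5 lower by 1.5-fold. With MDSCs 4 of 13 were higher and 1 lower. Among all genes at 10 CPM or more, 1.59% were higher and 1.59% lower with DCs, and 0.609% and 0.529% with MDSCs.

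Granzyme B tracked Eomes closely. Gzmb (ENSMUSG00000015437, chr14:56258838-56262260) was at 2167 CPM in Eomes-expressing and 811 CPM in other cells with DCs, and at 2842 and 1602 CPM with MDSCs, log2 ratios of 1.42 and 0.83. It was 0 in 9.73% of Eomes-expressing cells against 33.4% of other cells with DCs, and in 1.29% against 4.79% with MDSCs. Across 4 bins of cells from the lowest to the highest Gzmb value, Eomes was found in 8.29, 13.8, 25.1 and 49.1% of cells with DCs, where the lowest bin holds the cells without Gzmb. With MDSCs the shares were 10.8, 22.6, 30.0 and 48.5%. Few other granule genes differed: of 11 measured, Gzmb included, 2 were higher and 1 lower with DCs, and 1 was higher and 1 lower with MDSCs. The second one higher with DCs was Ctsw, a cathepsin of cytotoxic cells, with log2 ratios of 0.59 and 0.32. Of all genes at 10 CPM, 1.59% were higher and 1.59% lower with DCs, and 0.609% and 0.529% with MDSCs. Prf1, which encodes perforin, stayed at or below 0.603 CPM in every set.

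Gzma, the gene for granzyme A, is in the lower group only by its sums. It was at 7.76 CPM in Eomes-expressing and 26.7 CPM in other cells with DCs, and at 8.10 and 23.1 CPM with MDSCs. Yet it was above 0 in more Eomes-expressing cells, 4.59% against 2.43% with DCs and 4.68% against 3.99% with MDSCs. The sums rest on few cells: 4 other cells with DCs and 19 with MDSCs held 10 or more adjusted counts, 1 of them 426. When levels came from each cell's natural log value, averaged, the DC log2 ratio was 0.62 in place of -1.78, and without Ccl5-expressing cells the ratios were 1.92 and 0.76, so no direction is given for Gzma.

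**Figure D3:**
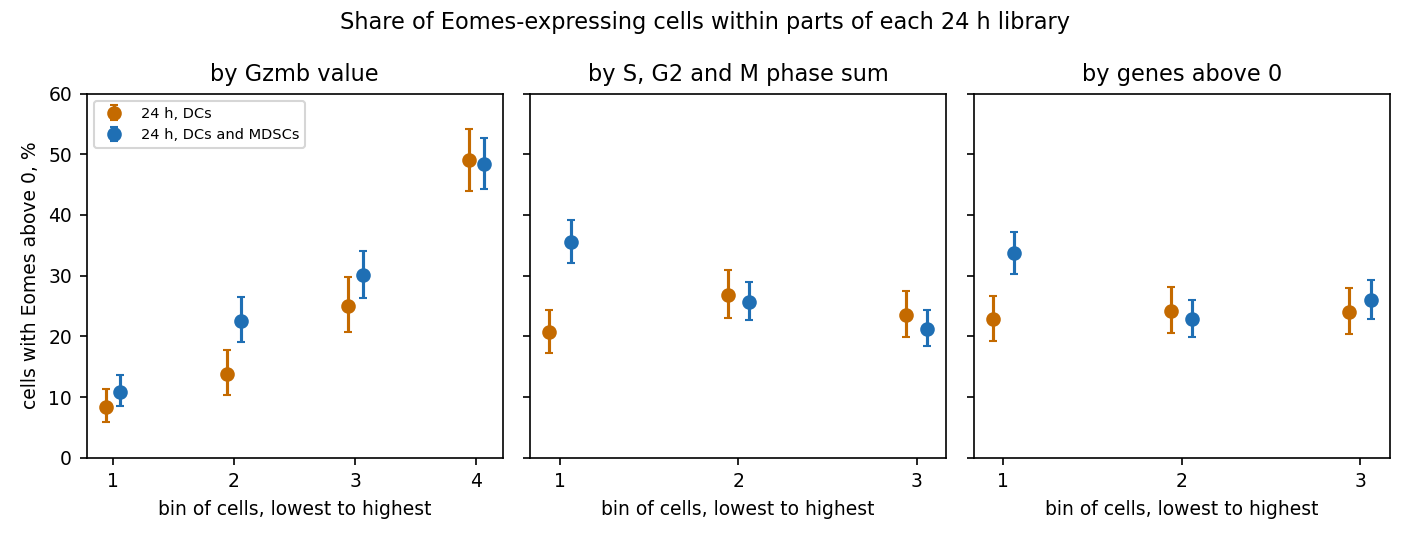
Points give the percentage of cells with Eomes above 0, with exact 95% intervals, in 4 bins of cells by Gzmb value, in 3 bins by summed cell cycle counts (S, G2 and M phase genes) and in 3 bins by the number of genes above 0. The share is higher with more Gzmb in both libraries to 49.1% and 48.5%, and with MDSCs it is highest in the bin with the lowest cell cycle sum (35.6%).

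Ly6c2 (ENSMUSG00000022584, chr15:75108158-75111970) had the highest ratio of all genes called in both libraries. Its protein Ly6C is a surface antigen of memory and effector CD8+ T cells, and also of monocytes. The level was 41.2 CPM in Eomes-expressing and 9.54 CPM in other cells with DCs, and 37.0 and 10.6 CPM with MDSCs, log2 ratios of 2.11 and 1.81. It was above 0 in 17.8% of Eomes-expressing cells against 6.12% with DCs, and in 17.8% against 7.56% with MDSCs. Eomes was found in 47.5% of the Ly6c2 cells with DCs and in 47.2% with MDSCs. Ly6c2 and Ly6c1 are near-identical copies, and the sources used here do not say how reads that match both were assigned. The same holds for Bcl2a1d, called lower in both with log2 ratios of -0.67 and -0.69, and its copies.

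Gadd45g (ENSMUSG00000021453, chr13:51846678-51848468), whose protein activates stress kinase signalling and is known to favour interferon gamma production, was next. It reached 102 CPM in Eomes-expressing and 29.0 CPM in other cells with DCs, and 103.5 and 35.2 CPM with MDSCs, log2 ratios of 1.82 and 1.56. It was above 0 in 57.6% and 54.3% of Eomes-expressing cells and in 22.3% and 25.9% of the others. Eomes was found in 44.5% of cells with Gadd45g and 14.5% of those without with DCs, and in 44.3% and 19.0% with MDSCs.

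These features overlapped only in part within the Eomes-expressing cells. With DCs, Gadd45g was above 0 in 59.1% of the Eomes-expressing cells that had Ly6c2 (46.3 to 71.0%) and in 57.2% of those without it (51.5 to 62.9%), and with MDSCs in 66 of 110 such cells with Ly6c2 (50.2 to 69.2%) and 53.05% of those without it (48.6 to 57.5%). The share with Gadd45g was thus similar with and without Ly6c2, with intervals that overlapped. Ifng was above 0 in 31.5% of the Eomes-expressing cells with Gadd45g (25.3 to 38.2%) and 17.2% of those without it (11.6 to 24.0%) with DCs, and in 46.1% (40.7 to 51.6%) and 30.7% (25.4 to 36.5%) with MDSCs, with intervals apart. Having Ifng said little about Il2 within the set: Il2 was above 0 in 40.4% of Eomes-expressing cells with Ifng and 43.1% of those without with DCs, and in 40.1% and 36.1% with MDSCs. The same held among the other cells, at 57.9% and 60.6% with DCs and at 54.0% and 53.7% with MDSCs.

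Genes of the IL-2 and IL-15 receptors and their response were higher beside Eomes more often than lower. Of 17 measured with DCs 6 were higher and 0 lower (median log2 ratio 0.48), and of 16 with MDSCs 3 were higher and 0 lower (median 0.36). The median of all genes at 10 CPM was 0.04 with DCs and -0.02 with MDSCs. At that level 1.59% of all genes were higher and 1.59% lower with DCs, and 0.609% and 0.529% with MDSCs. Il2rb (ENSMUSG00000068227, chr15:78479256-78495271) was at 118 CPM against 68.8 CPM with DCs and at 109 against 69.8 CPM with MDSCs, log2 ratios of 0.78 and 0.64. Il2ra, the alpha chain of the high-affinity IL-2 receptor, was below the call at 0.48 and 0.29. Socs1, an inhibitor of cytokine signalling, had log2 ratios of 0.69 and 0.68, and Bcl2, a survival gene, 0.68 and 0.58, the second just under 1.5-fold. Socs2, also an inhibitor of cytokine signalling, had 1.34 and 0.73, at 14.1 CPM or less. Il2 itself was lower in the same set of cells that held more Il2rb. Whether single cells held more Il2rb and less Il2 was not counted.

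Surface receptor genes differed in both directions. Icos was at 69.6 CPM in Eomes-expressing and 34.9 CPM in other cells with DCs, and at 50.6 and 23.7 CPM with MDSCs, log2 ratios of 0.99 and 1.10. The adhesion receptor gene Cd2 had 0.96 and 0.63. The receptor genes Il4ra (0.98 and 0.59), Crtam (0.59 and 0.86) and Treml2 (1.35 and 0.63) were also higher in both. Tnfrsf4 was at 84.7 CPM against 180 CPM with DCs and at 65.6 against 126 CPM with MDSCs, log2 ratios of -1.09 and -0.94. The TNF family gene Cd70, the ligand of CD27, was lower as well with -1.68 and -0.99, but at 18.03 CPM or less.

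Some inhibitory receptor genes were lower beside Eomes. Of 8 measured, 0 were higher and 4 lower with DCs (median log2 ratio -0.68), and 0 higher and 3 lower with MDSCs (median -0.36), where 1.59% and 0.529% of all genes at 10 CPM were lower. Ctla4 had -0.21 and -0.20 and Cd160 0.03 and -0.10, neither past 1.5-fold. Pdcd1, which encodes PD-1, was at 6.35 CPM against 15.1 CPM with DCs and at 7.67 against 12.8 CPM with MDSCs, log2 ratios of -1.25 and -0.74. Cd200 had -0.82 and -0.62, and Lag3 -0.81 with DCs and -0.36 with MDSCs. Of 24 early activation genes with DCs, 6 were lower and 1 higher with a median of -0.39, and Myc (0.32) and Nfkb1 (0.21) were among those with ratios above 1. With MDSCs 1 was lower and 1 higher of 22, with a median of -0.12. The higher gene in each case was Gadd45g.

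Transcription factor genes showed no common direction. Of the effector factors 2 of 15 were higher and 2 lower with DCs, and 2 of 15 higher and 0 lower with MDSCs. The shares of all genes at 10 CPM were 1.59% higher and 1.59% lower with DCs, and 0.609% and 0.529% with MDSCs. Tbx21 was at 43.9 CPM in Eomes-expressing and 38.9 CPM in other cells with DCs, and at 53.4 and 48.6 CPM with MDSCs, log2 ratios of 0.17 and 0.14. Tcf7, the memory-associated factor TCF-1, had -0.15 and -0.23. Batf3, a member of the AP-1 family, was higher in both with 1.08 and 0.59, and Irf8 had 0.60 and 0.56. Bach2, a repressor that restrains effector differentiation, was lower with -1.05 and -0.69, and Id3 was just short of the call with -0.55 and -0.54. Bhlhe40 had -0.98 and -0.53.

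**Figure D4:**
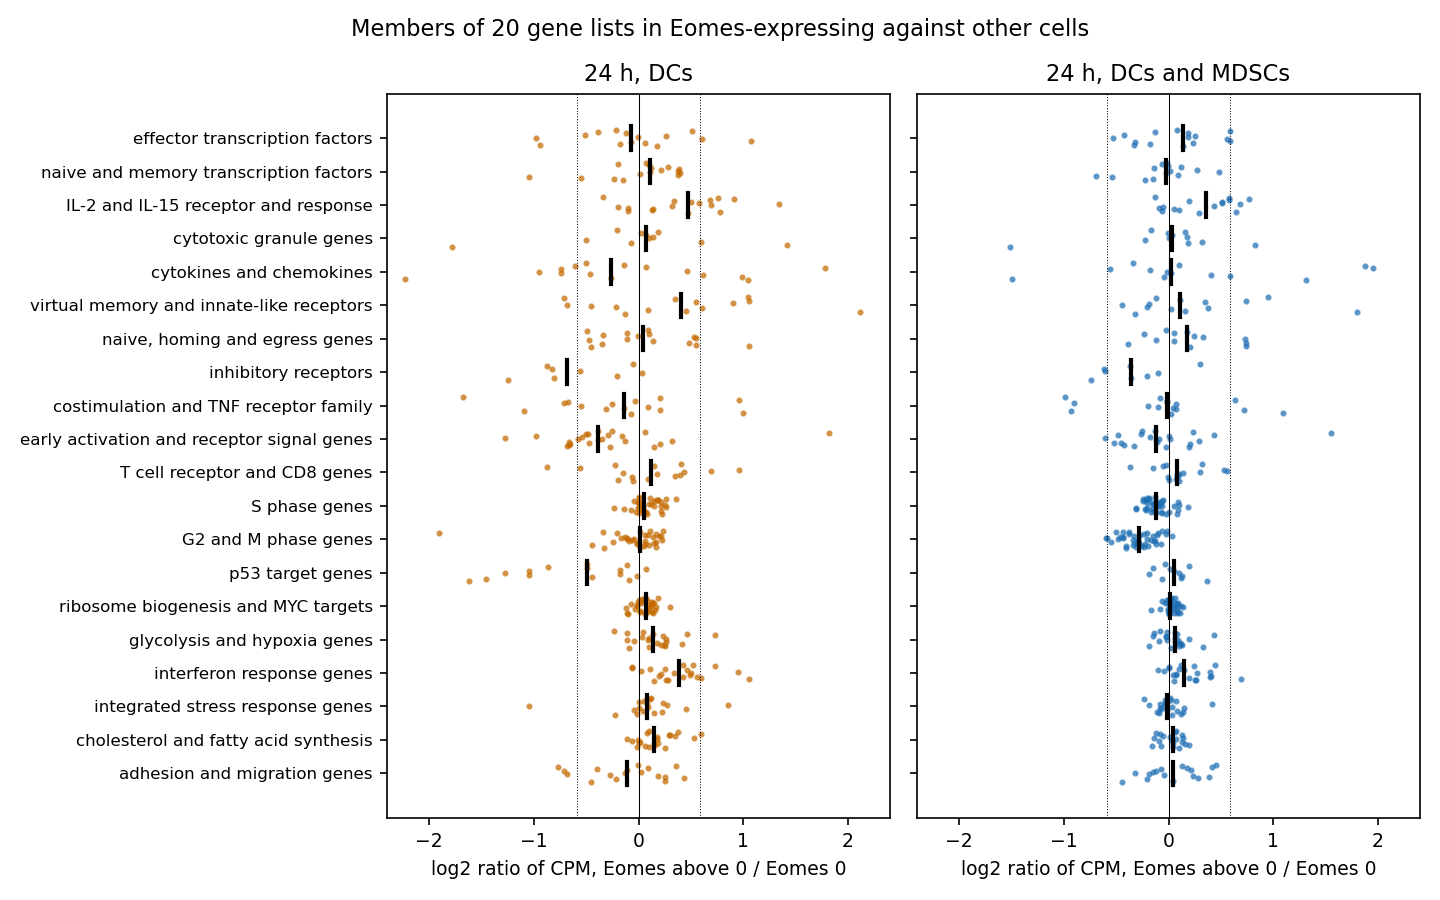
Points are members of 20 gene lists at 10 CPM or more, placed by the log2 ratio of CPM in Eomes-expressing to other cells with DCs (left) and with DCs and MDSCs (right). Black bars are list medians and dotted lines mark 1.5-fold. The IL-2 and IL-15 list lies to the right in both panels (medians 0.48 and 0.36), the inhibitory receptors to the left (-0.68 and -0.36), and the p53 targets to the left only with DCs.

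Interferon response genes leaned upward: 4 of 22 were higher and 0 lower with DCs (median 0.38), and 1 of 21 was higher and 0 lower with MDSCs (median 0.15). Ratios were above 1 for 20 of the 22 and 19 of the 21, against 3828 of 6400 and 2727 of 6240 genes in all. Isg15, a ubiquitin-like interferon-induced gene, was the list member called in both, at 29.8 CPM against 14.4 CPM and at 20.9 against 13.0 CPM, log2 ratios of 1.05 and 0.69. Of all genes at 10 CPM, 1.59% were higher by 1.5-fold with DCs and 0.609% with MDSCs. The list does not hold Cxcl10, the interferon-induced chemokine gene described above, which was lower in both libraries. Glycolysis, cholesterol synthesis and ribosome biogenesis lists stayed close to the median of all genes, with medians of 0.14, 0.15 and 0.07 with DCs and 0.06, 0.04 and 0.02 with MDSCs.

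Cell cycle genes had unlike ratios in the 2 cultures, a difference that was not tested. With MDSCs only 1 of 43 G2 and M phase genes had a ratio above 1 and the median log2 ratio was -0.29, while with DCs 18 of 33 were above 1 with a median of 0.01. S phase genes were above 1 in 7 of 40 with MDSCs and in 33 of 40 with DCs, though none was called in either. Mki67, the Ki-67 proliferation marker, was above 0 in 38.9% of Eomes-expressing cells (35.1 to 42.9%) against 50.4% of others (48.0 to 52.9%) with MDSCs. With DCs it was above 0 in 21.6% (17.5 to 26.2%) against 25.8% (23.4 to 28.4%), with overlapping intervals. That share pooled unlike cells: with DCs Mki67 was above 0 in 30.7, 13.6 and 13.3% at Eomes values of 1, 2 and 3 or more. The interval at 3 or more (7.62 to 20.9%) lay below that of the other cells. With MDSCs these shares were 44.9, 37.8 and 27.7%, so Mki67 was less frequent at the highest Eomes values in both libraries. Across 3 bins of cells from the lowest to the highest cell cycle sum, Eomes was found in 35.6, 25.7 and 21.3% with MDSCs and in 20.7, 26.9 and 23.5% with DCs. Cells with fewer genes above 0 also held more Eomes with MDSCs: 33.7, 22.9 and 26.03% from the lowest to the highest of 3 bins, against 22.8, 24.2 and 24.0% with DCs. Weighting the other cells over the number of genes above 0 left 15 genes higher and 9 lower in both libraries, all among the first 17 and 12.

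The ratios of the 2 cultures differed 2-fold or more for 4 of 4435 genes: 3 were higher with MDSCs (0.0676%) and 1 lower (0.0225%). Cdkn1a, the p53 target that encodes the cell cycle inhibitor p21, was at 30.6 CPM in Eomes-expressing and 93.9 CPM in other cells with DCs, but at 32.0 and 24.9 CPM with MDSCs, log2 ratios of -1.62 and 0.37. With other cells weighted by Gzmb these ratios were smaller, -0.88 and 0.17. The Eomes-expressing cells of the 2 cultures had almost the same level, and the cells that stood apart were other cells with DCs: 72 of 1192 (6.04%) held 10 or more adjusted counts of Cdkn1a, against 1 of 370 Eomes-expressing cells. With MDSCs it was 2 of 1628 and 3 of 619. Of 15 p53 targets measured with DCs, Cdkn1a included, 6 were lower and 0 higher (median -0.49), whereas with MDSCs 0 of 11 were called (median 0.05). Over all genes at 10 CPM, 1.59% were higher and 1.59% lower with DCs, and 0.609% and 0.529% with MDSCs. Phlda3, a p53 target known to restrain AKT, had -1.46 and -0.10, and Zmat3 -1.27 and -0.01.

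Ccl9, a chemokine gene, was at 13.5 CPM in Eomes-expressing and 22.7 CPM in other cells with DCs, and at 34.2 and 8.80 CPM with MDSCs, log2 ratios of -0.74 and 1.96. It rests on few cells: 14 of 619 Eomes-expressing cells with MDSCs held 10 or more adjusted counts against 5 of 1628 others, while with DCs it was 1 of 370 against 14 of 1192. Without Ccl5-expressing cells the DC ratio was 0.67. Lgals3, which encodes galectin-3, had -0.77 and 0.42, and the chemokine gene Ccl5 0.47 and -0.56. Without cells that held 3 or more markers of another type, the Ccl5 ratio with MDSCs was 0.50. With other cells weighted by Gzmb, Ccl5 with DCs was at -0.32 and Lgals3 with MDSCs at -0.28, each turned from its first direction.

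Within the set, the levels of several of these genes were graded over the Eomes value. Il2 was at 822, 284, 140 and 29.8 CPM in cells with an Eomes value of 0, 1, 2 and 3 or more with DCs, and at 407, 199, 94.3 and 74.9 CPM with MDSCs. Counted as cells holding any Il2, the set showed no such steps: 44.9, 46.9 and 35.4% did so with DCs and 34.5, 44.4 and 38.4% with MDSCs at values of 1, 2 and 3 or more. Gadd45g was at 29.0, 82.8, 111 and 127 CPM with DCs and at 35.2, 80.8, 114 and 141 CPM with MDSCs. Gzmb was at 811, 1783, 2260 and 2708 CPM with DCs and at 1602, 2694, 2875 and 3120 CPM with MDSCs. The levels of all 3 genes kept 1 order over the steps in both libraries, and cells at an Eomes value of 1 already differed from those at 0.

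Ly6c2 followed with 9.54, 32.4, 36.2 and 58.7 CPM with DCs and 10.6, 32.0, 33.5 and 50.5 CPM with MDSCs. Ifng was graded with MDSCs (185, 386, 453 and 617 CPM) but not with DCs (90.1, 176, 105 and 262 CPM). Bach2 was at 58.1, 36.5, 20.04 and 20.5 CPM with DCs and at 44.2, 31.7, 24.5 and 21.0 CPM with MDSCs. Tbx21 showed no such grading, with 38.9, 45.97, 38.8 and 44.2 CPM with DCs and 48.6, 56.8, 60.8 and 39.98 CPM with MDSCs. With the split set at an Eomes value of 2 or more against 0, 34 genes were higher in both libraries and 33 lower, including 16 of the 17 and all 12.

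**Figure D5:**
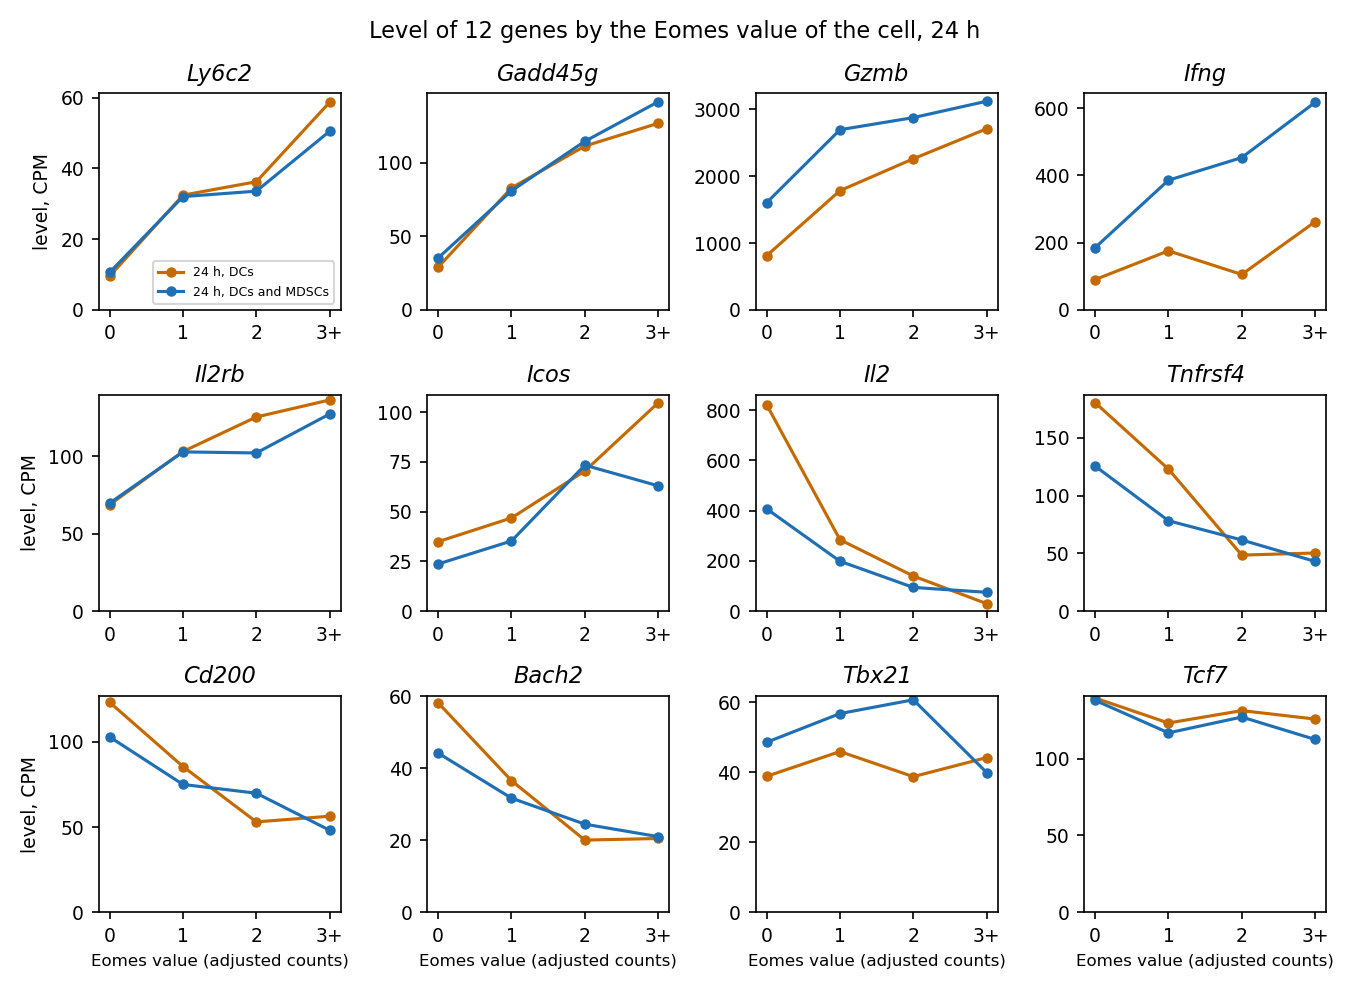
Each panel gives the level of a gene in CPM (y axis, from 0) in cells with an Eomes value of 0, 1, 2 and 3 or more (x axis) for the 2 libraries of 24 h. Ly6c2, Gadd45g, Gzmb and Il2rb are higher and Il2, Tnfrsf4, Cd200 and Bach2 lower in cells with Eomes, while Tbx21 and Tcf7 show no trend.

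At 72 h, when far fewer cells held Eomes, fewer of these genes were past 1.5-fold. The Eomes-expressing cells of 72 h had more genes above 0, a median of 3425 against 3205 with DCs and 3225 against 3115 with MDSCs. Of the 17 higher genes 14 reached 10 CPM at 72 h with DCs, and 9 of these had a ratio above 1, against 57.4% of all genes at that level. With MDSCs 13 of 15 were above 1, against 57.6% of all genes. Past 1.5-fold there were 3 in each library, against 3.67% and 0.605% of all genes. Of the 12 lower genes 5 of 7 with DCs and 8 of 9 with MDSCs had a ratio below 1, where 57.4% and 57.6% of all genes were above 1. Past 1.5-fold there were 1 and 0, against 2.04% and 0.0636% of all genes, while Gzma was higher with DCs at 72 h, with 367 against 166 CPM and a log2 ratio of 1.15. Ly6c2 was past 1.5-fold in both, at 204 CPM in Eomes-expressing and 32.1 CPM in other cells with DCs and at 47.0 and 18.7 CPM with MDSCs, log2 ratios of 2.67 and 1.33. Il2, at 8.71 CPM or less, was too low for a call, and Icos was at 34.1 against 34.7 CPM with DCs and at 27.0 CPM in both sets with MDSCs.

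The promoters of the called genes were searched for the core of the T-box motif, GGTGTG, and for a longer form, AGGTGTGA, on both strands of the 300 bases around each RefSeq start (build GRCm38.p6). The longer form holds the shorter within it. AGGTGTGA occurred in 1 or more windows of 1.48% of all genes, in 0.806% of 3472 genes at 20 CPM in both libraries, and in 0 of the 10 higher and 0 of the 11 lower genes that had a window. GGTGTG occurred in 21.4% of all genes, in 19.3% of those 3472, in 2 of the 10 higher genes (Stk39 and Isg15) and in 2 of the 11 lower (Bach2 and Bcl2a1d). With so few genes these counts show neither likeness to nor difference from promoters at large. The 250 bases before the start are printed for Ifng and Il2, the cytokine genes with opposite ratios, which have no match, and for Isg15 and Bach2, which have 1 each. Capitals mark GGTGTG or its reverse complement CACACC, and each sequence runs 5′ to 3′ on the strand of the gene.
Ifng (forward strand, chr10:118440796-118441045): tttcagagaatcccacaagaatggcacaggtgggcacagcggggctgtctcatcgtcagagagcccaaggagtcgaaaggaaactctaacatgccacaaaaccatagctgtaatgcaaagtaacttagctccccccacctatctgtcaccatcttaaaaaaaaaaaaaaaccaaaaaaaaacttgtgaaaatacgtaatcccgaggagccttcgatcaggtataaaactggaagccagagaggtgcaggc
Il2 (reverse strand, chr3:37125955-37126204): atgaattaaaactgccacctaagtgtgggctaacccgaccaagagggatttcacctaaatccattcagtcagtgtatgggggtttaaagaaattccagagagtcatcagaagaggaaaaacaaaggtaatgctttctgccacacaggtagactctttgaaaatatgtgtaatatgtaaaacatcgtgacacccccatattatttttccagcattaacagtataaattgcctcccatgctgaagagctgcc
Isg15 (reverse strand, chr4:156200819-156201068): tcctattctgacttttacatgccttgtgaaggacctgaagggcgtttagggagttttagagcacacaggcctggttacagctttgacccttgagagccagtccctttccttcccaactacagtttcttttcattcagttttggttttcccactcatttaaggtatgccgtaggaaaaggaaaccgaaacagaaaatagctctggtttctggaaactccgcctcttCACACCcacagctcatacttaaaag
Bach2 (forward strand, chr4:32417185-32417434): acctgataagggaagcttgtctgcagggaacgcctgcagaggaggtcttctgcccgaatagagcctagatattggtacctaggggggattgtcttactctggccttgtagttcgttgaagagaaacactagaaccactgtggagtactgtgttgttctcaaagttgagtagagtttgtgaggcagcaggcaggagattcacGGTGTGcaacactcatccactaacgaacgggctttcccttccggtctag
The Bach2 start lies inside the gene as GENCODE draws it (chr4:32238804-32586108). A match in these letters is a description and not a bound site, and no binding was measured.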

How the data were processed

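RNA was measured in FACS-sorted cells on the 10x Genomics droplet platform, per the labels' protocols. The submitters' processing notes list Cell Ranger 2.0.1, Seurat and the build mm10 without saying what each did. The authors' deposited values are natural log values, ln(1 + a whole number) per gene and cell: exp(value) - 1 was whole to within 1e-06 for every value. Totals per cell were nearly constant at 24 h (16999 to 20023, coefficient of variation 3.28%), so these adjusted counts are not molecules, depth is unknown, and no count model, thinning or doublet caller was used. Each cell's library came from the deposited cell annotation, which holds no cell types.

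The 24 h table (12631 genes) was split by Eomes within each library. Adjusted counts were summed over cells and scaled to 1000000. Genes at 20 CPM in either set were called at 1.5-fold, differences between libraries at 2-fold, and list members at 10 CPM. The 72 h table was used for the follow-up, the table of all time points for Eomes levels. The rule was run on simulated cells with independent counts drawn around each gene's mean. That setting has no genes resting on few extreme cells, so it cannot show how the rule treats them. The members and the 20 gene lists were chosen with earlier results of these data known. Named genes were the 14 most higher and 10 most lower in both libraries, up to 6 with the largest difference each way, 2 members of each list each way, and 35 fixed genes, 106 in all. Members named beyond these (Socs2, Ccl1, Cd70, Phlda3, Zmat3, Ctla4, Cd160, Nfkb1, and markers) were chosen after their values were seen. Each group being 1 library, no test was made. Positions are from GENCODE M21 (GRCm38). Alternatives were another table, split, level, total, minimum or weighting, and sets without doubtful cells. The weighting by Gzmb and the removal of shared barcodes were chosen after seeing the data. Python 3.11.15, NumPy 2.4.6, SciPy 1.17.1 and pandas 2.3.3 were used. The values of 1 gene among those called are not reported here.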

Additional observations from a re-analysis of the deposited data

Results flagged for a closer look

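The ratio of Eomes-expressing to other cells differed 2-fold or more between the 2 libraries of 24 h for 4 genes. In each of them it had opposite directions, and this difference was not tested. The log2 ratio with MDSCs minus that with DCs was 2.70 for Ccl9, 1.98 for Cdkn1a and 1.18 for Lgals3, and -1.03 for Ccl5. With other cells weighted by Gzmb, Lgals3 with MDSCs was at -0.28 and Ccl5 with DCs at -0.32, so neither kept opposite directions. Cdkn1a kept them under that weighting but with smaller ratios, -0.88 with DCs and 0.17 with MDSCs. In Cdkn1a the gap lay in the other cells (93.9 CPM with DCs, 24.9 CPM with MDSCs), since the Eomes-expressing cells were at 30.6 and 32.0 CPM. In Ccl9 both sets differed, 13.5 and 34.2 CPM in Eomes-expressing and 22.7 and 8.80 CPM in other cells.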

How the results depend on the processing

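Counts below are genes higher and lower with DCs, with MDSCs, in both, and differing between libraries. With Eomes at 2 or more they were 104 and 124, 47 and 58, 34 and 33, with 12 ratios higher with MDSCs. With a minimum of 10 CPM they were 102 and 102, 38 and 33, 27 and 21, and 7 and 2. With 50 CPM they were 28 and 25, 12 and 6, 9 and 5, and 0 and 0. With the Gzmb weighting they were 9 and 19, 7 and 7, 3 and 5, with 0 lower differences. Without ribosomal protein and mitochondrial genes in the total, the lower counts were 115, 30 and 20, with 7 higher differences. The cell cycle weighting left 10 higher in both. Lower differences numbered 0 with the mean natural log value, without cells with other types' markers, and without Ccl5-expressing cells. Fewer or more genes pass a moved minimum by construction. The lower difference in the first counts was Ccl5, which is lost by construction when Ccl5-expressing cells are removed. In the same way Gzmb is lost from the calls when the other cells are weighted by Gzmb. For the other changes in these counts the cause was not tested. Of 2099 single-gene ratios recomputed, 2049 stayed within 1.5-fold of their first value, 51 of them changing sign. Another 44 moved farther, with 7 changes of sign in ratios that were under 1.5-fold at first (Ccl5, Klrd1, Prf1 and Lgals3), and 6 ratios past 1.5-fold turned direction. With DCs, Gzma was at 0.62 by the mean natural log value. Without cells with other types' markers it was at 1.63 with DCs and 1.44 with MDSCs, and without Ccl5-expressing cells at 1.92 and 0.76, while Ccl9 with DCs was at 0.67. Gzma is itself in the NK marker list, so the removal of cells with other types' markers draws in part on Gzma. Shares of Eomes-expressing cells stayed within their intervals. No paired analysis was possible because each group is 1 library. Depth is unknown, so low values and differences between cultures have no error estimate beyond cell counting.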
